A study of Mus musculus with 4 samples.

Results

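*Lck*, *Fyn*, *Zap70*, *Lat*, *Lcp2*, *Grb2*, *Plcg1*, *Vav1* and *Rasgrp1* encode the kinases, adaptors and effector enzymes that act closest to the T-cell receptor (TCR). They were chosen by name as the proximal TCR signalling set, and their symbols matched 9 of the 24421 genes listed in the expression table. All 9 were compared between Foxa1/2cKO and control CD69+DP thymocytes, which are CD4+CD8+ cells that carry CD69, a surface protein that appears after a TCR signal. RNA-seq was carried out on 4 samples, 2 per group, from C57BL/6 mice aged 6 weeks, and no mouse contributed to more than 1 sample. Per the study's methods the controls were Cre-negative littermates and a sort used 2 mice per genotype, but the labels do not say which samples shared a litter or a sort, nor is it stated whether mice were pooled. Both groups carried floxed alleles of *Foxa1* and *Foxa2* (Foxa1fl/flFoxa2fl/fl), so the controls differ from wild type at these loci too. Control mice lacked Cre. Foxa1/2cKO mice (labelled coKO) carried a CD4Cre transgene, in which the *Cd4* promoter drives Cre and deletion begins at the DP stage.

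When a TCR binds peptide and MHC, Lck phosphorylates the CD3 and zeta chains, and Zap70 docks on them and is itself activated. Zap70 then phosphorylates the adaptors Lat and SLP-76 (encoded by *Lcp2*), on which Plcg1, Vav1 and Grb2 assemble, and the diacylglycerol made by Plcg1 recruits Rasgrp1 to switch on Ras. In DP thymocytes the strength and duration of this relay help to decide between death, positive selection and the CD4 or CD8 lineage, which is why its parts are of interest in cells that had lost *Foxa1* and *Foxa2*.

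All 9 genes were abundant, and none differed between Foxa1/2cKO and control by more than the replicate samples allowed. The largest difference between the group means was that of *Rasgrp1*, at 1.14-fold on the fitted scale, and the smallest was that of *Fyn*. *Plcg1* was the only one of the 9 whose Foxa1/2cKO samples were both on the same side of both controls. Most of the variation lay between the 2 Foxa1/2cKO samples, since Foxa1/2cKO 2 had the highest value of all 4 samples for 9 of the 9 genes and Foxa1/2cKO 1 the lowest for 7 of them. Over all 10776 genes tested, Foxa1/2cKO 2 was highest for 4360 and Foxa1/2cKO 1 lowest for 3145.

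The values behave as FPKM, that is reads counted on a gene divided by its length and by a total for the sample, so genes are compared per length. Levels between genes rest on the lengths used, which are not given. The values imply 4168 bases for *Vav1* and 2721 for *Zap70*, where the longest annotated transcripts have 2963 and 2245. In the other direction, they imply 1234 bases for *Lat* and 1305 for *Grb2*, where those transcripts have 2053 and 2709. Implied lengths, like the recovered reads, are known up to a divisor shared by the values of a gene. The unit was inferred from the values. The reads recovered on listed genes, the depth, were between 10396462 and 14482115 per sample. The totals used as divisors were not the depths, since that of Foxa1/2cKO 2 was 11093906 with 11261898 reads recovered on genes. In each sample the total was 12459470 times the median-of-ratios size factor of the recovered reads (1.20 and 1.09 in control, 0.867 and 0.890 in Foxa1/2cKO), so a scaling between samples is already part of every value given here. *Foxa1* and *Foxa2* were listed at 0 in control and Foxa1/2cKO samples alike, which leaves the genotypes unchecked by their values. A count of 0 allows up to 3 reads, which would give an FPKM of 0.0628 to 0.0871 for *Foxa1* and 0.0942 to 0.131 for *Foxa2*, with counting error alone covered. The labelled cell type was checked against 8 DP genes, among them *Cd4*, *Cd8a*, *Rag1* and *Cd69*, of which 8 were above an FPKM of 1 in at least 2 samples. *Cd69* was at 113 and 103 FPKM in the controls and at 107 and 121 in Foxa1/2cKO.

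The windows before 3 of the genes are shown because they are the ones the results turn on: *Lck*, which has a pair of start sites and the highest level, *Rasgrp1*, which had the widest gap between Foxa1/2cKO samples, and *Plcg1*, whose groups did not overlap. *Lck* is on chromosome 4, on the minus strand, at chr4:129548344-129573641. Its first start site lies far upstream and its second lies just before the coding exons, and the upstream one is known as the distal promoter and the other as the proximal promoter. *Rasgrp1* is on the minus strand at chr2:117279983-117342877, and *Plcg1* is on the plus strand at chr2:160731310-160775760. Each sequence is the 250 bases before a RefSeq start site in the GRCm38.p6 assembly, the same assembly as mm10, written 5′ to 3′ on the strand of the gene. Capitals mark any match, on either strand, to TGTTTAC or TGTTTGC (forkhead core letters), TGTGGT (RUNX), AGGAAGT (ETS), CAGGTG (an E-box, the site of E proteins) or TATAAA, 6 motifs that do not overlap each other in these windows.
Lck distal, chr4:129573642-129573891, minus strand: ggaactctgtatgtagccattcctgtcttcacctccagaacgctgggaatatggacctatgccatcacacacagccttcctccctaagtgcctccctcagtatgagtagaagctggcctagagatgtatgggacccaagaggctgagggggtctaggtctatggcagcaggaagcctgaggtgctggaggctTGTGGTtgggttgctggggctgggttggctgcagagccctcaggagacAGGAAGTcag
Lck proximal, chr4:129558373-129558622, minus strand: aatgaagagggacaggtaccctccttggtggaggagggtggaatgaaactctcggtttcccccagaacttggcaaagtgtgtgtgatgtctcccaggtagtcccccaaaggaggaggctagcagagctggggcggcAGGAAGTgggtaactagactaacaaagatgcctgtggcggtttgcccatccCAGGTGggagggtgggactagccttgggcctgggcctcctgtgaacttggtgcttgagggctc
Rasgrp1, chr2:117342878-117343127, minus strand: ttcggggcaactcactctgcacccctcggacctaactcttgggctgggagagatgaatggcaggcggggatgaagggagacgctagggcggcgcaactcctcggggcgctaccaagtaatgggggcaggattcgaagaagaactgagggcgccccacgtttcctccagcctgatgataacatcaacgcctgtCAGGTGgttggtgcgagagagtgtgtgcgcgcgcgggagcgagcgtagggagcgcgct
Plcg1, chr2:160731060-160731309, plus strand: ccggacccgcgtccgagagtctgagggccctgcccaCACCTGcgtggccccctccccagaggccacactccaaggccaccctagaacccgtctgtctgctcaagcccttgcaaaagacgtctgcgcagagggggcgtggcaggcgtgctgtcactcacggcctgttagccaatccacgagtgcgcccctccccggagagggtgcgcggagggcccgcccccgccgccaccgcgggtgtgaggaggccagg

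The distal *Lck* window held TGTGGT 58 bases and AGGAAGT 10 bases before the start site, and the proximal window held AGGAAGT at 114 bases and CAGGTG at 63 bases before it. The *Rasgrp1* window held CAGGTG 58 bases before the start. In the *Plcg1* window the match to the E-box, 214 bases before the start, is on the opposite strand and so reads CACCTG. Across the 13 windows of the 9 genes, CAGGTG was in 6 windows of 5 genes, against 17.2% of the 32851 windows of all genes, and AGGAAGT was in 4 windows of 3 genes (*Grb2*, *Lck* and *Vav1*), against 7.69%. TGTGGT was in 2 windows, those of *Lck* and *Zap70*, against 14.05%, and TATAAA in 1, that of *Grb2*, against 12.4%. Not every start site has a matching transcript in the GENCODE annotation. For the *Plcg1* window, the *Zap70* window with TGTGGT and the *Grb2* window with TATAAA, 0 GENCODE transcripts held the next 50 bases near their start. The *Grb2* windows lie inside the span of the gene. Neither TGTTTAC nor TGTTTGC was in any of the 13 windows, where 3.17% and 4.30% of all windows hold them, which says only that these letters are not in these 250 bases. The GC content of the 13 windows ran from 41.2% for *Lcp2* to 71.2% for *Plcg1*, around a median of 52.4% over all windows. A value per gene does not separate transcripts from the distal and proximal *Lck* starts.

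The levels of the 9 genes, per the lengths behind the values, formed an order that was stable across samples. *Lck* was highest in all 4 samples, at 749 and 741 FPKM in the controls and 675 and 844 FPKM in Foxa1/2cKO, followed by *Lat*, *Rasgrp1*, *Lcp2*, *Zap70*, *Fyn*, *Vav1*, *Plcg1* and *Grb2* by mean FPKM. This order was found in 3 of the 4 samples, the exception being Foxa1/2cKO 2, where *Vav1* was above *Fyn*. The steps from *Lck* to *Lat*, from *Lat* to *Rasgrp1* and from *Zap70* to *Fyn* were larger than the spread of the samples, as the 4 values of each pair did not overlap. For *Rasgrp1* and *Lcp2*, *Lcp2* and *Zap70*, *Fyn* and *Vav1*, *Vav1* and *Plcg1*, and *Plcg1* and *Grb2* the values overlapped across samples, so these neighbours did not differ beyond the spread of the samples. Within samples, however, the first of each pair was higher in 4 of 4, by 1.04-fold or more, except that *Fyn* was above *Vav1* in 3 of 4. By mean FPKM *Lck* lay at the 99.7th percentile and *Grb2*, the lowest of the 9, at the 91.1st percentile of the 10776 genes that were expressed well enough to be tested, that is with 2 or more samples at an FPKM of 1 or above.

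**Figure D1:**
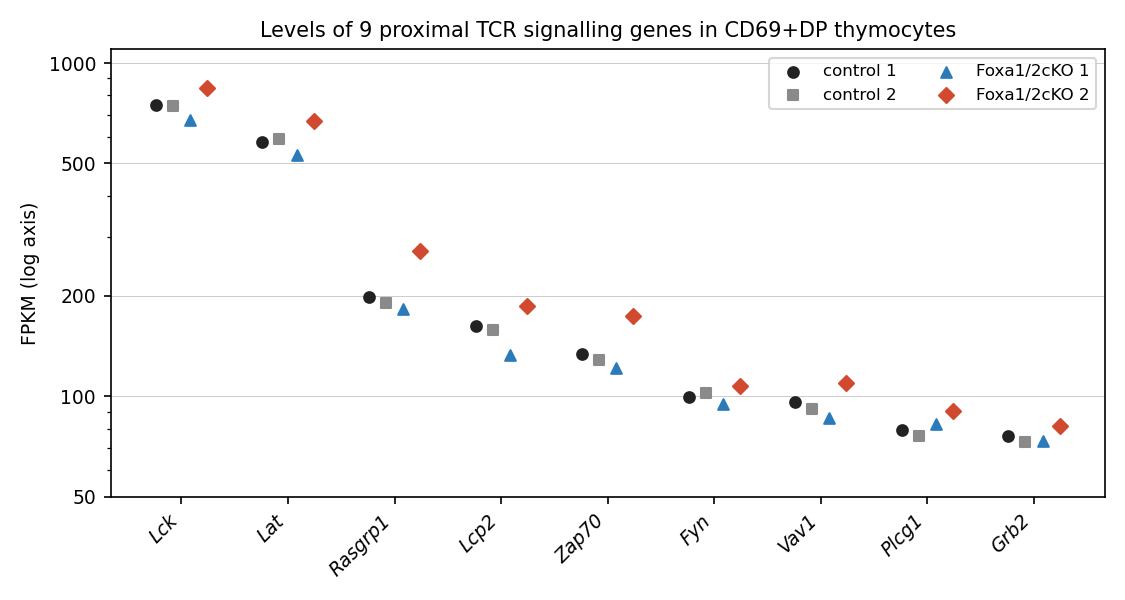
FPKM on a log axis (y) of the 9 genes (x, ordered by mean FPKM) in the 4 samples, each point 1 sample. The control points of each gene lie close together, and Foxa1/2cKO 2 is the highest point for 9 of 9 genes. Over all 10776 genes tested, it is highest for 4360.

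Among the kinases, Lck is the Src family kinase bound to the tails of CD4 and CD8. The mean of *Lck* was 745 ± 5.39 FPKM (SD, n = 2) in control and 759 ± 120 FPKM (SD, n = 2) in Foxa1/2cKO. The controls were nearly equal, with Foxa1/2cKO 1 below both and Foxa1/2cKO 2 above both, so the groups overlapped. The difference on the log2(FPKM + 1) scale, on which the change of low genes is understated, was 0.02 with a 95% interval of -0.34 to 0.38 (limma, Benjamini-Hochberg adjusted p = 0.986), and it turned to -0.02 when the samples were scaled to their recovered reads. The interval corresponds to 0.789-fold to 1.30-fold.

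*Fyn* encodes the other Src family kinase of the TCR complex, which associates with the CD3 chains. It was at 99.3 and 102 FPKM in control and at 94.96 and 108 FPKM in Foxa1/2cKO. The same arrangement was seen, with Foxa1/2cKO 1 lowest and Foxa1/2cKO 2 highest. The log2 difference was 0.01, with a 95% interval of -0.25 to 0.26 (limma, adjusted p = 0.994), and became -0.03 with scaling to the recovered reads and -0.01 with upper-quartile scaling. *Lck* exceeded *Fyn* by 7.10-fold to 7.84-fold within a sample.

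*Zap70* encodes the Syk family kinase that binds phosphorylated CD3 and zeta chains. Its values were 134 and 128 FPKM in control and 122 and 174 FPKM in Foxa1/2cKO. Foxa1/2cKO 2 stood well above the other 3 samples, which lay close together, and the group means were 131 ± 4.11 and 148 ± 37.1 FPKM (SD, n = 2 each). The log2 difference was 0.15, with a 95% interval of -0.34 to 0.64 (limma, adjusted p = 0.893), and it was -0.11 without Foxa1/2cKO 2 and 0.40 without Foxa1/2cKO 1.

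Among the adaptors, Lat is the membrane scaffold that Zap70 phosphorylates. *Lat* was at 578 and 591 FPKM in control and at 530 and 671 FPKM in Foxa1/2cKO. The controls again lay between the Foxa1/2cKO samples. Its log2 difference was 0.03, with a 95% interval of -0.34 to 0.40 (limma, adjusted p = 0.978), and it became -0.01 under scaling to the recovered reads.

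*Lcp2* encodes SLP-76, the cytosolic adaptor that joins the Lat complex and holds Vav1 and Plcg1. It was at 162 and 158 FPKM in control and at 133 and 187 FPKM in Foxa1/2cKO, with the controls in between. *Lcp2* was the only one of the 9 genes with a lower mean in Foxa1/2cKO, at 160 ± 37.8 against 160 ± 2.83 FPKM (SD, n = 2 each), and its log2 difference was -0.02 with a 95% interval of -0.49 to 0.44 (limma, adjusted p = 0.986). In the annotation 6.32% of its exonic bases overlap a gene on the other strand, 4930469K13Rik, and the strand setting of the gene counting is not given in the sources used here (the exon counting of the study ignored strand).

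*Grb2* encodes the small adaptor that brings the Ras exchange factor Sos to Lat. Its values were 75.8 and 72.9 FPKM in control and 73.7 and 81.3 FPKM in Foxa1/2cKO. Foxa1/2cKO 1 lay between the controls and Foxa1/2cKO 2 above both. The log2 difference was 0.06, with a 95% interval of -0.18 to 0.30 (limma, adjusted p = 0.912). Of all runs of 50 bases in its longest transcript in the annotation, 8.38% also occur in Gm12791 or Gm13542, so a part of its reads could be split with those genes, depending on how reads with several matches were counted.

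Among the effectors, Plcg1 is the phospholipase that makes inositol trisphosphate, which releases calcium, and diacylglycerol. *Plcg1* was at 79.4 and 76.0 FPKM in control and at 82.5 and 90.1 FPKM in Foxa1/2cKO. Both Foxa1/2cKO samples were above both controls, without overlap, and the means were 77.7 ± 2.36 and 86.3 ± 5.32 FPKM (SD, n = 2 each). The log2 difference of 0.15 had a 95% interval of -0.09 to 0.38 and did not pass the test (limma, unadjusted p = 0.165, adjusted p = 0.863). Exons of Zhx3 and Gm27206 on the other strand cover 6.68% of its exonic bases.

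*Vav1* encodes the exchange factor for Rac that links the TCR to the cytoskeleton. It was at 95.8 and 91.6 FPKM in control and at 85.8 and 109 FPKM in Foxa1/2cKO, with the controls in between. Its log2 difference was 0.05, with a 95% interval of -0.32 to 0.41 (limma, adjusted p = 0.954).

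*Rasgrp1* encodes the exchange factor that loads Ras with GTP once diacylglycerol is made. Its values were 199 and 191 FPKM in control and 182 and 273 FPKM in Foxa1/2cKO. Foxa1/2cKO 2 was 1.49 times Foxa1/2cKO 1, the widest such gap of the 9 genes, while Foxa1/2cKO 1 was slightly below both controls. The log2 difference was 0.20, with a 95% interval of -0.34 to 0.73 (limma, adjusted p = 0.872), and removing Foxa1/2cKO 2 turned it to -0.09, while removing Foxa1/2cKO 1 brought it to 0.48. The ratio of *Rasgrp1* to *Plcg1*, whose product diacylglycerol it senses, was 2.51 in both controls, against 2.21 and 3.03 in the Foxa1/2cKO samples.

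**Figure D2:**
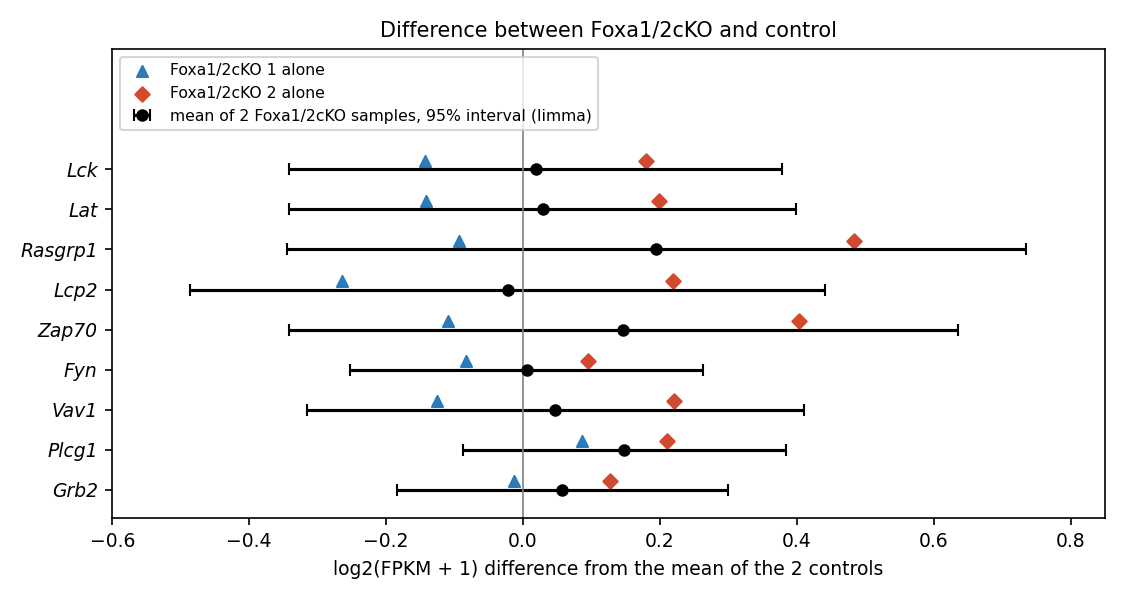
Difference from the control mean in log2(FPKM + 1) (x) for each of the 9 genes (y), with the mean of the 2 Foxa1/2cKO samples and its 95% limma interval (black) and each Foxa1/2cKO sample alone (blue triangle for 1, red diamond for 2). All 9 intervals include 0, and for 8 of 9 genes the blue triangle lies below 0 while the red diamond lies above it. Over all genes tested the medians are -0.0088 for Foxa1/2cKO 1 and 0.022 for Foxa1/2cKO 2.

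Of the 9 genes, 0 had a limma adjusted p under 0.05 and 0 had an unadjusted p under 0.05. Over all 10776 genes tested, 1 passed the adjusted threshold (0.00928%), the non-coding RNA gene 2610035D17Rik, named here because it is the only one, and 490 (4.55%) had an unadjusted p under 0.05. The median log2 difference of the 9 genes was 0.05, and that of all genes tested was 0.01. The 1 gene of 9 without overlap between the groups, *Plcg1*, compares with 36.7% of all genes without overlap in either direction and 18.9% higher in Foxa1/2cKO. With 2 samples in each group an exact permutation test has a smallest two-sided p of 0.333, so no single gene could pass such a test. The spread within each group rests on 2 samples.

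The 95% intervals state what these 4 samples could and could not show. The narrowest were those of *Plcg1*, 0.941-fold to 1.31-fold, *Grb2*, 0.880-fold to 1.23-fold, and *Fyn*, 0.839-fold to 1.20-fold. The widest was that of *Rasgrp1*, from 0.788-fold to 1.66-fold. An adjusted p above the threshold therefore does not show that the levels were equal. Counting error was smaller than these widths, and at the lowest read number it was between 0.773% for *Lck*, with at least 16739 reads in every sample, and 3.10% for *Grb2*, with at least 1038 reads (reads recovered up to a divisor shared by the 4 values of a gene).

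The 2 Foxa1/2cKO samples differed from each other in these genes in 1 direction. For 7 of the 9 genes (*Lck*, *Fyn*, *Zap70*, *Lat*, *Lcp2*, *Vav1* and *Rasgrp1*), Foxa1/2cKO 1 was below both controls and Foxa1/2cKO 2 above both, an arrangement found in 1983 of all genes tested (18.4%). Foxa1/2cKO 2 minus Foxa1/2cKO 1 had a median of 0.34 on the log2 scale over the 9 genes and 0.03 over all genes, and this signed gap lay between the 63.6th percentile of all genes for *Plcg1* and the 97.2nd for *Rasgrp1*. Without regard to sign, the median gap was 0.34 for the 9 genes and 0.20 for all genes, and 6 of the 9 were above that of all genes while *Fyn*, *Grb2* and *Plcg1* were below it. By size *Rasgrp1* was at the 88.8th percentile and *Plcg1* at the 32.4th. Control 2 minus control 1 had a median of -0.06 over the 9 genes and 0.01 over all genes. The summed FPKM of the 9 genes was 2173 and 2152 in the controls, against 1978 and 2536 in the Foxa1/2cKO samples. Over all genes the gap between Foxa1/2cKO samples was also wider than that between controls, with an SD of 0.405 against 0.198 on the log2 scale.

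**Figure D3:**
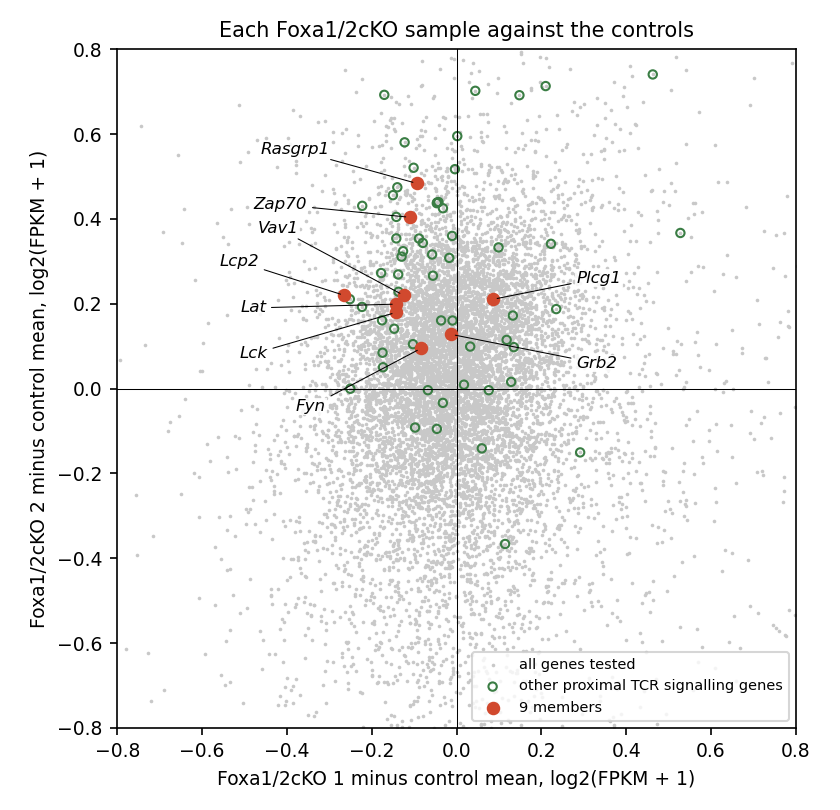
Each tested gene as Foxa1/2cKO 1 minus the control mean (x) and Foxa1/2cKO 2 minus the control mean (y), both as a difference in log2(FPKM + 1), with the 9 genes in red and 57 other proximal TCR signalling genes as green rings. Of 10776 genes, 552 lie outside the axis limits of 0.8, and 8 of the 9 red points are left of 0 and above 0. The medians of all genes tested are -0.0088 (x) and 0.022 (y).

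The calls depended on which samples were kept. Without Foxa1/2cKO 1, 7 of the 9 genes had an adjusted p under 0.05, all higher in Foxa1/2cKO 2, from 0.18 for *Lck* to 0.48 for *Rasgrp1* on the log2 scale, and 2695 of all genes were called (25.4%). Without Foxa1/2cKO 2, none of the 9 genes was called, 24 of all genes were (0.224%), and 8 of the 9 differences were negative, the exception being *Plcg1* at 0.09. In both fits the lone Foxa1/2cKO sample is assumed to vary like the controls, so they compare 1 library with the controls. The signs restate where each Foxa1/2cKO sample lies against the control mean and are no further evidence. The median of that difference was -0.11 for Foxa1/2cKO 1 and 0.21 for Foxa1/2cKO 2 over the 9 genes. Over all genes tested it was -0.0088 and 0.022. *Plcg1* was at 0.09 without Foxa1/2cKO 2 and at 0.21 without Foxa1/2cKO 1. That both are positive follows from its groups not overlapping and is no further check.

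Marker genes of other cells and of cell division moved between the same samples. The 8 DP genes summed to 2443 and 2488 FPKM in the controls and to 2522 and 3148 FPKM in the Foxa1/2cKO samples 1 and 2. The 5 genes of dividing cells (*Mki67*, *Top2a*, *Ccnb1*, *Cdk1* and *Birc5*) summed to 305 and 321 (controls), 365 (Foxa1/2cKO 1) and 111 (Foxa1/2cKO 2), and 4 genes of mature SP cells (*Ccr7*, *S1pr1*, *Klf2* and *Il7r*) to 166 and 193, 185 and 75.9. Foxa1/2cKO 2 thus had the highest DP sum and the lowest sums of both others, and Foxa1/2cKO 1 the highest sum of dividing cell genes. In Foxa1/2cKO 1, *Mki67*, *Top2a* and *Ccnb1* were above both controls. *Cdk1* was at 28.1 FPKM there, below both controls (28.7 and 28.9), and *Birc5* was at 23.6, between its controls (22.7 and 24.3). Of the 8 DP genes, 6 were highest in Foxa1/2cKO 2, among them *Rag2*, which was at 39.9 FPKM in both Foxa1/2cKO samples. *Rag1* was highest in Foxa1/2cKO 1, at 449 FPKM against 368 FPKM in Foxa1/2cKO 2. *Cd3e* was at 396 FPKM in Foxa1/2cKO 2 and in both controls. The part of these differences in the values of the 9 genes was not tested, and in bulk samples fewer cells of a type and less RNA per cell cannot be told apart.

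The 4 B cell genes (*Cd79a*, *Cd79b*, *Ms4a1* and *Pax5*), all detected, summed to 56.2, 39.1, 76.3 and 42.96 FPKM, control samples first, and the 5 myeloid genes (*Lyz2*, *Csf1r*, *Itgam*, *Itgax* and *Cd68*) to 27.5, 17.1, 25.8 and 13.5. Both sums were higher in control 1 and Foxa1/2cKO 1, which is another division of the samples than that of the 9 genes. The erythroid sum was 0.608 to 2.67 FPKM, with *Hba-a1* and *Hbb-bs* at 0 in all samples, and the thymic epithelial sum 3.18 to 4.18 FPKM, nearly all of it *Epcam*, with *Foxn1* and *Psmb11* close to 0.

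**Figure D4:**
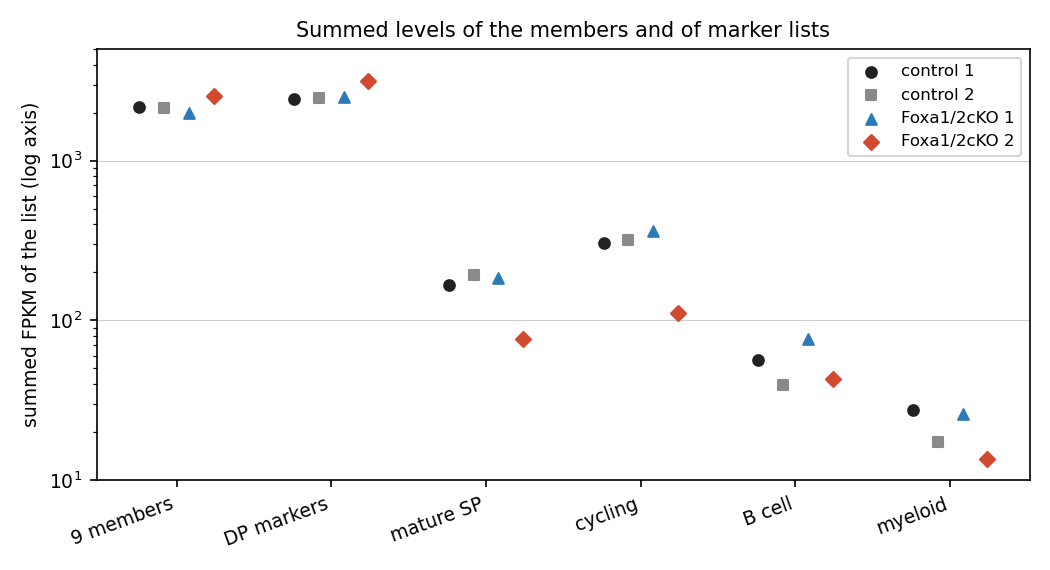
Summed FPKM on a log axis (y) of the 9 genes and of the marker lists for DP, mature SP, dividing (cycling), B and myeloid cells (x), each point 1 sample. The sum of the 9 genes and the DP sum are highest in Foxa1/2cKO 2, where the mature SP, cycling and myeloid sums are lowest.

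Each of the 9 genes belongs to a family, and the share of each in the summed FPKM of its family shows which relative was most abundant. *Lck* made up 86.2% to 88.0% of the Src family members compared here and *Fyn* 11.2% to 12.1%, while *Src*, *Yes1*, *Lyn*, *Blk* and *Fgr* were each at 4.84 FPKM or less in every sample. *Zap70* made up 91.7% to 95.2% beside *Syk*, *Lat* 99.2% to 99.5% beside *Lat2*, *Lcp2* 94.4% to 97.8% beside *Blnk* and *Clnk*, and *Plcg1* 91.5% to 96.5% beside *Plcg2*. *Vav1* made up 82.2% to 86.0%, with *Vav2* at 11.5% to 14.6%. Each of these genes was thus the most abundant of its family, with *Fyn* next after *Lck*, in all 4 samples.

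*Grb2* and *Rasgrp1* shared their families more evenly. *Grb2* had 24.9% to 27.5% of its family, less than *Grap* at 39.7% to 41.3% and *Grap2* at 32.3% to 34.5%, the latter encoding Gads, which ties SLP-76 to Lat. *Grap* was at 108 to 127 FPKM and *Grap2* at 86.6 to 110 FPKM, and both had Foxa1/2cKO 1 lowest and Foxa1/2cKO 2 highest, the same arrangement as *Lck*. *Rasgrp1* had 73.8% and 71.1% of the RasGRP family in control and 72.9% and 81.3% in Foxa1/2cKO. *Rasgrp2*, an exchange factor for Rap1, was at 57.9 and 65.0 FPKM in control and at 56.2 and 46.2 in Foxa1/2cKO, below both controls in both samples, and its log2 difference of -0.26 did not pass the test (limma, unadjusted p = 0.104, adjusted p = 0.863). *Rasgrp4* was at 10.9 and 11.1 FPKM in control and at 8.86 and 15.2 in Foxa1/2cKO.

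**Figure D5:**
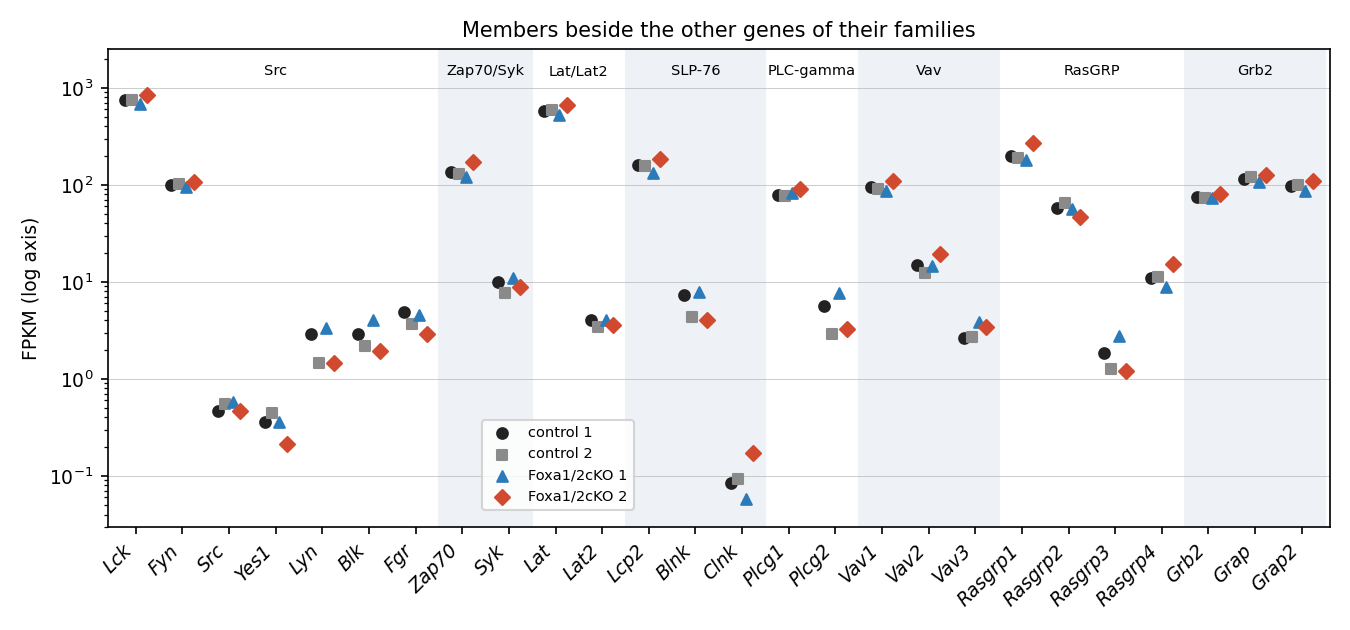
FPKM on a log axis (y) of the 9 genes and 17 relatives (x, with shaded and white bands for the families), each point 1 sample. *Lck*, *Zap70*, *Lat*, *Lcp2*, *Plcg1* and *Vav1* lie far above their relatives in every sample, whereas *Grb2*, *Grap* and *Grap2* lie at similar levels.

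Of 17 relatives of the 9 genes, 14 passed the filter on low values and 0 of these were called by limma at an adjusted or an unadjusted p under 0.05, while *Src*, *Yes1* and *Clnk* did not pass it. *Vav3*, a low Vav family member, came closest, at 2.64 and 2.68 FPKM in control and 3.83 and 3.42 in Foxa1/2cKO, with a log2 difference of 0.34 (limma, unadjusted p = 0.057, adjusted p = 0.863). Of the 14, 8 (*Lyn*, *Blk*, *Fgr*, *Syk*, *Lat2*, *Blnk*, *Plcg2* and *Rasgrp3*) had control 1 and Foxa1/2cKO 1 as their 2 highest samples, as the summed B cell genes and the summed myeloid genes did. *Plcg2*, for example, was at 5.66 and 2.93 FPKM in control and at 7.71 and 3.25 in Foxa1/2cKO, and *Blnk*, the SLP-76 relative of B cells, was at 7.33 and 4.32 and at 7.82 and 4.08. Of the 9 proximal TCR genes 0 were arranged this way, and 11.6% of all genes tested were. The B cell gene *Cd79b*, at 19.1 and 20.1 FPKM in control and 26.4 and 19.3 in Foxa1/2cKO, was not. Whether B cells or myeloid cells gave the reads of these relatives was not tested.

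The wider pathway was read from 57 further genes of proximal TCR signalling in 5 lists, all 57 of them tested. Of these, 0 had a limma adjusted p under 0.05 and 3 an unadjusted p under 0.05, all higher in Foxa1/2cKO, against 4.55% of all genes. For 14 genes there was no overlap of groups, with 11 higher and 3 lower in Foxa1/2cKO (*Csk*, *Pag1* and *Lime1*), against 36.7% of all genes in either direction and 18.9% higher, so the share without overlap was below that of all genes. The median log2 difference was 0.11, against 0.01 for all genes. In 26 of the 57, Foxa1/2cKO 1 was below and Foxa1/2cKO 2 above both controls, against 18.4% of all genes. Without Foxa1/2cKO 1, 33 of the 57 were called, against 25.4% of all genes.

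The counts without overlap in the single lists are small and are read against the same 36.7% of all genes. In the receptor list (CD3 and zeta chains, coreceptors and *Cd28*), the groups did not overlap in 1 of 8, *Cd8b1*, which encodes the CD8 beta chain and was at 592 and 613 FPKM in control and at 668 and 974 in Foxa1/2cKO. The list of Tec family and downstream kinases had 2 of 5 without overlap, and the larger difference was that of *Tec*, at 7.81 and 8.14 FPKM in control and 9.47 and 10.4 in Foxa1/2cKO (log2 difference 0.28, limma unadjusted p = 0.044, adjusted p = 0.863). In the adaptor list it was 1 of 11, *Skap2*, a cytosolic adaptor, at 5.10 and 5.03 FPKM in control and 7.74 and 6.82 in Foxa1/2cKO (0.45, unadjusted p = 0.014, adjusted p = 0.863). These 2 genes stood above both controls in both Foxa1/2cKO samples but are far lower in level than the 9 core genes.

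In the list of Ras and lipid signalling genes, 1 of 14 did not overlap, *Itpr1*, the receptor for inositol trisphosphate, at 18.3 and 17.8 FPKM in control and 19.9 and 19.4 in Foxa1/2cKO (0.12). In the list of genes that restrain or modulate the signal, *Ptprc* among them, 9 of 19 did not overlap, against 36.7% of all genes. Of these 9, 6 were higher, including *Ptprc*, and 3 lower. The largest difference among them was that of *Cbl*, the ubiquitin ligase that acts on activated TCR complexes, at 58.0 and 51.0 FPKM in control and 75.3 and 91.6 in Foxa1/2cKO (0.60, limma unadjusted p = 0.007, adjusted p = 0.863). None of the 9 core genes showed a difference of the size of that of *Cbl* or *Skap2*, as the largest, that of *Rasgrp1*, was 0.20.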

How the data were processed

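RNA-seq values of 4 samples of sorted mouse thymocytes were analysed, 2 per group as labelled. The deposited values behave as FPKM per gene and sample, already scaled between samples by the authors in proportion to size factors. Reads had been aligned by the authors to the mm10 genome and assigned to RefSeq genes by HTSeq. The submitters' processing notes also name TopHat, Picard and DESeq2. The step that turned reads into FPKM is not given in the sources used here. The size of the steps between values gave whole reads for 100% of 16069 genes above 0 (within rounding, and up to any divisor shared by the 4 values of a gene), and 10396462 to 14482115 reads per sample were obtained. Counting error alone is covered by read numbers and limits.

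Differences were fitted with limma 3.58.1 in R 4.3.3 on log2(FPKM + 1), with a mean-variance trend, over the 10776 genes that reached an FPKM of 1 in 2 or more samples, with two-sided p-values and Benjamini-Hochberg adjustment over all of them at 0.05. The fit had 2 residual and 2.69 prior degrees of freedom. It was also run on simulated data, in which all samples varied alike and the changes were larger than any difference of the 9 genes. That run therefore does not cover differences as small as theirs or the wider gap between the Foxa1/2cKO samples. The 9 genes and all lists (relatives, 5 pathway lists and markers of DP, mature SP, dividing, B, myeloid, erythroid and thymic epithelial cells) were chosen with earlier results of these data known. Named were the 9 genes, relatives above the filter, pathway genes with p under 0.05 and the non-overlapping pathway gene with the largest difference in each list. Other genes named, such as *Csk*, *Pag1*, *Lime1* and 2610035D17Rik, were chosen after their values were seen.

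The alternatives were a pseudocount of 0.1, no filter, upper-quartile scaling, scaling to recovered reads, a replicate block, a length correction with and without that block, limma-voom on recovered reads and leaving out each sample. Sequences and coordinates are from RefSeq on GRCm38.p6, and exon overlaps and shared stretches from GENCODE on the same assembly. Tables were made in Python 3.11.15 (pandas 2.3.3, numpy 2.4.6, scipy 1.17.1) and plots in matplotlib 3.10.9. Protein sequences, exon usage and isoforms were not analysed here. The study reported differential use of exons in many genes, *Rasgrp1* and *Fyn* among them, and counted *Rasgrp1* as not differentially expressed. The values per gene used here do not bear on that result. The results of 3 genes of the marker and relative lists are not reported here, and these genes were left out of the sums, shares and counts.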

Additional observations from a re-analysis of the deposited data

How the results depend on the processing

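Over the 8 settings that kept all 4 samples, 68 of the 72 differences of single genes kept their direction, with limma adjusted p between 0.832 and 0.998, and 4 turned: *Fyn* to -0.0071 with upper-quartile scaling, and *Lck* to -0.0164, *Fyn* to -0.0291 and *Lat* to -0.0062 with scaling to the recovered reads. The 1 gene called among all genes became 0 with a pseudocount of 0.1, without the filter, with scaling to the recovered reads and with limma-voom. The cause was not tested.

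Leaving out each sample moved the results more. All genes called ranged from 0 to 2695, the 9 genes called from 0 to 7, pathway genes called from 0 to 33 and the 9 genes without overlap from 1 to 9. In these runs a lack of overlap only requires the lone sample of a group to be the lowest or highest of those kept. The same count over all genes is not given here, so its range shows nothing particular to the 9 genes. On the log2 scale the median of the 9 genes ranged from -0.11 to 0.21, *Lck* from -0.14 to 0.18, *Fyn* from -0.0839 to 0.0947, *Zap70* from -0.11 to 0.40, *Lat* from -0.14 to 0.20, *Lcp2* from -0.26 to 0.22, *Grb2* from -0.0126 to 0.13, *Plcg1* from 0.086 to 0.21, *Vav1* from -0.13 to 0.22 and *Rasgrp1* from -0.0935 to 0.48. Without Foxa1/2cKO 1, 7 of the 9 genes were called, with *Lcp2* at 0.22, and *Fyn* and *Grb2* were not. Without control 1, *Fyn* was at -0.01.

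The replicate numbers are shared by the groups, and controls were littermates of Foxa1/2cKO mice per the study's methods, but the labels do not say that a number marks a litter or sort, and the deviations of same-numbered samples had a correlation of -0.0587. With the replicate block 0 of the 9 genes were called, *Lck* was at 0.02 and *Rasgrp1* at 0.20, and with the block and the length correction *Rasgrp1* was at 0.16. The block changed no call. With limma, 2 samples per group and adjustment over all genes, differences well beyond those of the 9 genes were not called, such as that of *Cbl* at 0.60. The study used another test, DESeq2 on counts with p-values re-estimated by fdrtool. It named *Cbl* and *Cd8b1* among its differentially expressed genes, both higher in Foxa1/2cKO.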
